A study of Homo sapiens with 4 samples.

Results

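The genes described here are those of the ATF4 transcription programme and of the unfolded protein response in Kasumi-1 cells, an established acute myeloid leukemia line that carries the RUNX1-RUNX1T1 fusion. They were chosen by name, with earlier results of these data known, so their shares beside those of all genes are descriptions. A list of 36 genes covered ATF4 and its targets, the sensors of endoplasmic reticulum (ER) stress, ER chaperones and ER degradation genes, and members needed at least 1 TPM (a share of the sample's transcripts, corrected for transcript length) in at least 2 of 4 samples. The table held 18567 genes, of which 16817 passed that filter, and 34 of the 36 listed genes were among them. All 34 listed genes found in the table passed. The levels of STC2 and NUPR1 were not analysed here.

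RNA was sequenced from 2 control samples (NC) and 2 samples carrying a short hairpin RNA (shRNA) against ANP32B, an acidic nuclear phosphoprotein that binds histones. Both groups are the same cell line, with no drug named in the labels. The labels give the NC samples as untreated with no hairpin, whereas the study's methods describe a non-targeting hairpin. According to those methods the hairpins were delivered by lentivirus and infected cells were selected with puromycin, and which of the 3 ANP32B hairpins each sh-ANP32B sample carried is not given in the sources used here. If the NC samples had no hairpin, infection and selection cannot be told apart from the knockdown. Nothing states that replicates were separate cultures, so the p-values below measure only the spread between these samples, which may be technical.

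ATF4 is a transcription factor whose mRNA is translated more efficiently when eIF2 alpha is phosphorylated, by PERK (EIF2AK3) under ER stress or by GCN2 (EIF2AK4) under amino acid shortage. Its targets serve amino acid supply, redox balance and, under lasting stress, cell death. The unfolded protein response has 2 further sensors, IRE1 (ERN1), which splices XBP1 mRNA, and ATF6, which is cleaved to an active factor, and these raise ER chaperones and the machinery that extracts misfolded proteins for degradation. Neither the phosphorylation of eIF2 alpha, the splicing of XBP1 nor the cleavage of ATF6 can be read from levels of mRNA per gene.

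ANP32B itself was 383.8 and 392 TPM in NC 1 and 2, against 51.8 and 41.2 TPM in sh-ANP32B 1 and 2, so the sh-ANP32B mean was 11.99% of the NC mean (log2 fold change -3.04, limma adjusted p 0.00516). Summed TPM lay between 997812 and 998314 per sample. The unit was taken from the values and these sums. Such sums hold no depth, so neither counting intervals nor detection floors could be given. The number of genes at 1 TPM or more was 15973 to 16540. Mitochondrial transcripts made up 12.9 and 13.1% in NC, against 11.4 and 8.43% in sh-ANP32B. Of 5 markers listed for Kasumi-1, 3 were in the table: RUNX1T1 at 15.6 to 31.2 TPM, CD33 at 58.5 to 70.1 TPM and KIT at only 1.55 to 3.41 TPM, and CD34 and MPO were not analysed here. Of 18 markers of other cell types reported here, 2 were in the table (CD79A and CD2), and their summed level was 2.93 and 2.72 TPM in NC against 9.48 and 11.4 TPM in sh-ANP32B. CD2, a T cell adhesion molecule, rose from 1.65 and 1.57 TPM to 9.48 and 9.25 TPM (limma adjusted p 0.0261), and CD79A was at 0 in sh-ANP32B 1. Their part in the results below was not tested. In limma without its abundance trend, 0 of 16817 genes passed the adjusted p, so the calls of ANP32B and CD2 did not hold in that fit.

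Promoter sequence shows which members share a regulatory element with their class. Promoters of 34 of the 36 listed genes were matched in RefSeq (GRCh38.p14), as windows from 250 bases before to 50 bases after each start. PDIA3 and NUPR1 had no window. These 34 genes therefore include STC2, leave out PDIA3 and are not the same set as the 34 members tested. The shares of listed genes below are of these 34. They were searched on both strands for the ER stress element ERSE (CCAAT and CCACG with 9 bases between them), for ERSE-II (ATTGG and CCACG with 1 base between them), for the unfolded protein response element UPRE (TGACGTGG), for the C/EBP-ATF response element CARE (TGATGNAAN) and for the ATF/CRE palindrome (TGACGTCA). ERSE, the element recognised by cleaved ATF6 together with NF-Y, was found in 7 listed genes (HSPA5, HSP90B1, CALR, CANX, PDIA6, CRELD2 and XBP1), or 20.6%, against 0.0916% of 27305 genes with a promoter window. ERSE-II was found in HERPUD1, HYOU1 and SDF2L1, or 8.82% against 0.0696%. CARE, the composite site at which ATF4 binds with a C/EBP partner, was found in ASNS, CEBPG, CHAC1 and HERPUD1, or 11.8% against 4.45%. UPRE was found in HYOU1 (0.927% of all genes), where it overlaps an ERSE-II match, and the ATF/CRE palindrome in PPP1R15A (2.25% of all genes). A match describes the letters of the window and does not show that a factor bound there. The genes were listed, and the elements chosen, for their known part in this same response. The shares of listed genes beside those of all genes are therefore descriptions and were not tested.

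The stretches below are given because they carry such a match in the 6 matching members with the smallest p-values in the comparison. Each is written 5′ to 3′ on the strand of its gene, with the matched element in capitals, and an element on the other strand appears as its reverse complement. The positions are those of GRCh38.p14. HERPUD1 (chr16:56931945-56932055) holds a CARE match and, further downstream, an ERSE-II match. HSP90B1 (chr12:103930196-103930359) holds 2 ERSE matches, of which the second is on the other strand. CALR (chr19:12938364-12938422) and CRELD2 (chr22:49918534-49918592) hold ERSE on the other strand, PDIA6 (chr2:10812833-10812891, minus strand) holds it on its own, and PPP1R15A (chr19:48872343-48872390) holds the palindrome.
PPP1R15A: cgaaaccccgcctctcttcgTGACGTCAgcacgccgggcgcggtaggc
HERPUD1: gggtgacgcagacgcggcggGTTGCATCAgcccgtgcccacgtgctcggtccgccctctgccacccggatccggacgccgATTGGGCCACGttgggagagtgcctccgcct
HSP90B1: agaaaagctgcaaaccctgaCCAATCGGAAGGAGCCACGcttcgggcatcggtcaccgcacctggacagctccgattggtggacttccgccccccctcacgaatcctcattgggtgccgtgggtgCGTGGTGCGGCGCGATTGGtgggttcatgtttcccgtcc
CALR: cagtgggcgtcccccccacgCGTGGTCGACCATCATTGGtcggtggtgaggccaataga
CRELD2: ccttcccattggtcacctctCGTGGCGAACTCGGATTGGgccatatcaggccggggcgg
PDIA6: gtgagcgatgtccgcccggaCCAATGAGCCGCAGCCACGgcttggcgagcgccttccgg

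The comparison of sh-ANP32B with NC asked which of these genes differ in level when ANP32B is knocked down. No single direction covered the 34 members. Relative to NC, 15 had a positive and 19 a negative log2 fold change, from -0.64 (ATF5) to 0.70 (DNAJB9), with a median of -0.09 against 0.08 over all genes tested. Of the 16817 genes tested, 9741 had a positive and 7076 a negative log2 fold change. None of the 34 passed an adjusted p of 0.05 in limma on log2(TPM + 1), where 3.32% of all genes did (2.14% higher and 1.18% lower). At an unadjusted p under 0.05 there were 12 members, 6 higher and 6 lower in sh-ANP32B, or 35.3% against 23.8% of all genes (15% higher and 8.72% lower). The study's own criterion, which asks for an unadjusted p under 0.05 and a log2 difference beyond 0.5 either way, was met by 7 members (20.6%) against 18.6% of all genes, which is close to the background. DDIT4, PPP1R15A, DNAJB9, HERPUD1 and SYVN1 met it with higher levels, and ATF5 and MANF with lower levels, against 12.1 and 6.55% of all genes. The sh-ANP32B and NC values did not overlap in 21 members (61.8%), against 54.6% of all genes. Of these, 11 were higher and 10 lower (33.2 and 21.4% of all genes). In bulk RNA, fewer cells of a kind and less RNA per cell cannot be told apart.

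**Figure D1:**
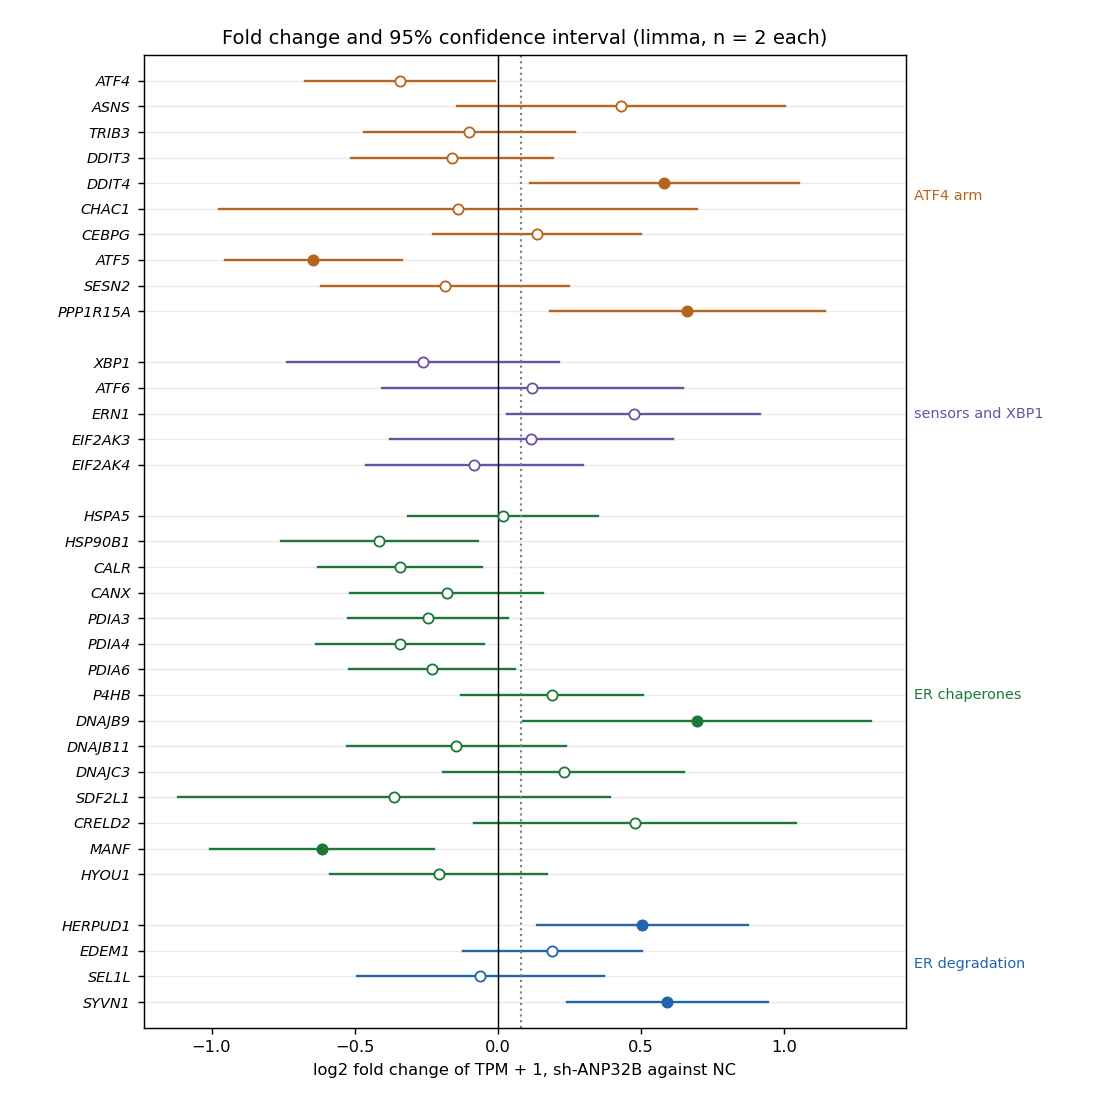
Log2 fold change of each of the 34 members, sh-ANP32B minus NC on the log2(TPM + 1) scale, ordered within the ATF4 arm, the sensors and XBP1, the ER chaperones and the ER degradation genes, with lines giving the 95% confidence interval of limma, filled points the 7 members that met the study's criterion and a dotted line the median of all genes. Most chaperones lie left of 0, 3 of 4 degradation genes lie right of 0, and the ATF4 arm spans both sides from -0.64 for ATF5 to 0.66 for PPP1R15A.

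ATF4 (chr22:39519695-39522683, plus strand) was 343 and 368 TPM in NC, against 255.3 and 307.5 TPM in sh-ANP32B. Both sh-ANP32B samples were below both NC samples, with means of 281.4 ± 36.9 and 355.5 ± 17.6 TPM (SD, n = 2 each). The log2 fold change was -0.34 (SE 0.140, limma p 0.0461, adjusted p 0.203), so the difference did not pass the test.

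The transcription factors and regulators among the ATF4 targets lay on both sides of NC. ATF5 (chr19:49928702-49933935), a related factor whose mRNA is also under translational control by eIF2, was 106.4 and 106.7 TPM in NC, against 65.6 and 70.2 TPM in sh-ANP32B. These groups lay far apart relative to their replicate gaps, and the log2 fold change of -0.64 (SE 0.129) was the nearest of all members to the threshold, with a limma adjusted p of 0.0514. The gene overlaps NUP62 (82.9 to 115.3 TPM) over 1063 bases and IL4I1 (9.29 to 15.6 TPM) over 838 bases, both on the opposite strand. A further protein-coding gene, ENSG00000269179, overlaps it on the opposite strand over 5234 bases and has no value here. Whether counting used strand is not given in the sources used here, so reads of ATF5 and these genes may have been mixed. NUP62 was 115.3 and 106.8 TPM in NC, against 82.9 and 104.9 TPM in sh-ANP32B.

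PPP1R15A (chr19:48872212-48876059), which encodes GADD34, the stress-induced subunit that directs a phosphatase to eIF2 alpha, was 58.8 and 49.1 TPM in NC, against 71.8 and 102 TPM in sh-ANP32B. Its log2 fold change was 0.66 (SE 0.201, limma p 0.0141, adjusted p 0.116). DDIT4 (chr10:72273919-72276036), the mTORC1 inhibitor REDD1, was 351.3 and 339.8 TPM in NC, against 423 and 634.1 TPM in sh-ANP32B, a log2 fold change of 0.58 (SE 0.197, limma p 0.0225, adjusted p 0.143). Both genes were higher in each sh-ANP32B sample than in either NC sample, and for both the sh-ANP32B replicates lay further apart than the NC replicates.

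DDIT3, which encodes the cell death factor CHOP, was 31.7 TPM in both NC samples and 27.9 and 28.7 TPM in sh-ANP32B. The difference was small, a log2 fold change of -0.16 with a 95% confidence interval from -0.51 to 0.19 (limma adjusted p 0.566). DDIT3 overlaps MARS1 (113.2 to 151.7 TPM) over 982 bases and MBD6 (26.7 to 42.9 TPM) over 1028 bases, both on the opposite strand. A further protein-coding gene, ENSG00000285133, overlaps it on the same strand over 2769 bases and has no value here. These overlaps leave the level of DDIT3 uncertain. TRIB3, a pseudokinase that restrains AKT and ATF4, had 39.7 and 38.5 TPM in NC, against 33.6 and 39.4 TPM in sh-ANP32B, and its groups overlapped.

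The amino acid and redox targets were among the lowest members in level. ASNS, asparagine synthetase, was 3.94 and 4.02 TPM in NC, against 6.42 and 5.08 TPM in sh-ANP32B, higher in both knockdown samples but short of the test (log2 fold change 0.43, limma adjusted p 0.330). A long non-coding gene, ENSG00000284707, overlaps ASNS on the same strand over 20855 bases and has no value here, so the level of ASNS is uncertain. CHAC1, which degrades glutathione, ranged from 2.22 to 4.47 TPM with overlapping groups. CEBPG, a C/EBP partner of ATF4, lay between 51.7 and 65.3 TPM, and SESN2, a leucine sensor that restrains mTORC1, between 16.9 and 22.5 TPM, and both overlapped between groups. Of the 4 listed genes with a CARE match, ASNS, CEBPG and HERPUD1 had positive and CHAC1 a negative log2 fold change.

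**Figure D2:**
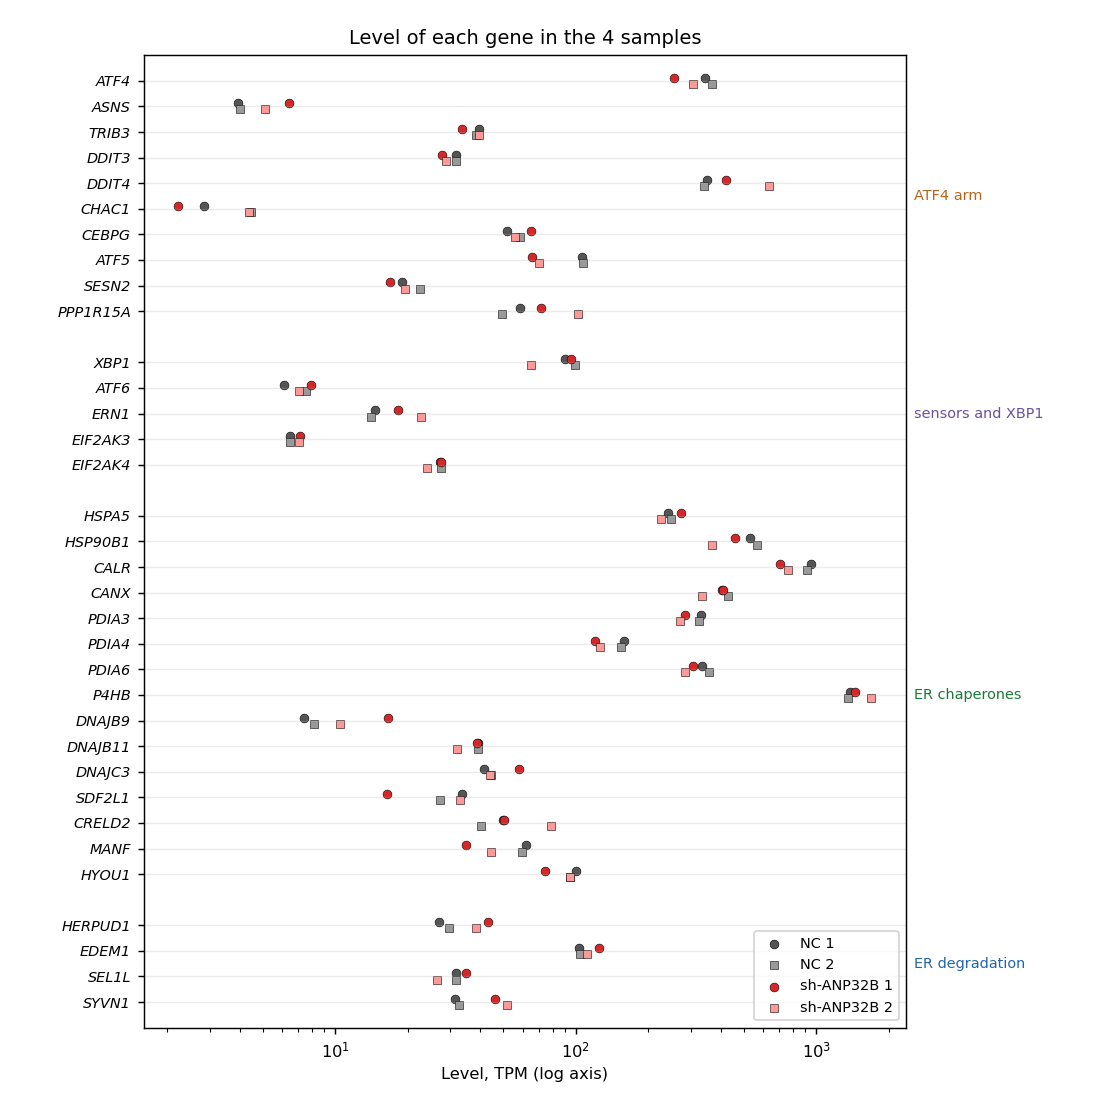
Level of each of the 34 members in each sample as TPM on a log axis, with NC 1 and 2 and sh-ANP32B 1 and 2 as separate points, grouped by role. Levels reach from 2.22 TPM for CHAC1 to 1698 TPM for P4HB, and within most genes the 4 samples lie close together on this scale, with wide gaps in DNAJB9, PPP1R15A, SDF2L1 and CHAC1.

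The sensors were low in level compared with the chaperones. ERN1 (IRE1) was 14.5 and 14.1 TPM in NC, against 18.2 and 22.6 TPM in sh-ANP32B, with no overlap (log2 fold change 0.48, SE 0.185, limma p 0.0386, adjusted p 0.187). EIF2AK3 (PERK) was 6.46 and 6.47 TPM in NC, against 7.14 and 7.07 TPM in sh-ANP32B. Its replicates were nearly equal and its groups did not overlap, but the log2 fold change was only 0.12, with an interval from -0.38 to 0.61. ATF6 ranged from 6.09 to 7.87 TPM and EIF2AK4 (GCN2) from 24.1 to 27.6 TPM, each with overlapping groups. XBP1, whose mRNA is the substrate of IRE1, was 89.95 and 99.1 TPM in NC, against 95.1 and 65.0 TPM in sh-ANP32B. The value of sh-ANP32B 1 lay within the NC range. The log2 fold change was -0.26 (limma adjusted p 0.476), and without sh-ANP32B 2 it was 0.01.

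Among the 15 ER chaperones and folding enzymes, 10 had a negative and 5 a positive log2 fold change, with a median of -0.21 against 0.08 over all genes. Unadjusted p-values under 0.05 were reached by 4 lower genes (HSP90B1, CALR, PDIA4 and MANF) and by 1 higher gene (DNAJB9), or 33.3% of the group against 23.8% of all genes (8.72% lower and 15% higher). Summed over the 15 genes, the level was 4675 and 4672 TPM in NC, against 4294 and 4412 TPM in sh-ANP32B. These sums are ruled by a few abundant genes.

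HSP90B1, the ER paralog of HSP90 known as GRP94, was 531.6 and 565.4 TPM in NC, against 457.3 and 370.2 TPM in sh-ANP32B (log2 fold change -0.41, SE 0.144, limma adjusted p 0.152). CALR, the calcium-binding lectin chaperone calreticulin, was 949.1 and 916.3 TPM in NC, against 707.7 and 765 TPM in sh-ANP32B (log2 fold change -0.34, SE 0.12, limma adjusted p 0.154). PDIA4, a disulfide isomerase, was 158 and 154.4 TPM in NC, against 120.1 and 126.2 TPM in sh-ANP32B (log2 fold change -0.34, SE 0.123, limma adjusted p 0.160). In all 3 genes the sh-ANP32B values lay below the NC values, at 75.4 to 78.9% of the NC mean. HSP90B1 overlaps the much lower UQCC6 (7.98 to 13.2 TPM) on the opposite strand.

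MANF (chr3:51385291-51389397), a secreted ER-resident protein that stabilises HSPA5 with its clients, was 62.0 and 59.7 TPM in NC, against 35.0 and 44.4 TPM in sh-ANP32B. It had the lowest fold change of the chaperone group, -0.61 (SE 0.164, limma p 0.00792, adjusted p 0.0898), and the groups did not overlap. The disulfide isomerases PDIA3 (326.6 to 330.5 TPM in NC, 271.1 to 283.7 TPM in sh-ANP32B) and PDIA6 (335.2 to 356.7 against 284.3 to 305.8 TPM) were also lower without overlap, with log2 fold changes of -0.24 and -0.23. CANX, the membrane-bound lectin chaperone calnexin, was 406.8 and 428.7 TPM in NC, against 407.6 and 333.7 TPM in sh-ANP32B, so sh-ANP32B 1 lay inside the NC range.

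HSPA5, the HSP70 of the ER lumen known as BiP and the usual reporter of ER stress, was 242.8 and 249.2 TPM in NC, against 274.3 and 226.7 TPM in sh-ANP32B. The 2 sh-ANP32B samples lay on opposite sides of the NC samples. The log2 fold change was 0.02, with a 95% confidence interval from -0.31 to 0.35 (limma adjusted p 0.953), and its sign turned under other scalings.

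P4HB, a disulfide isomerase and the most abundant member, was 1387 and 1361 TPM in NC, against 1448 and 1698 TPM in sh-ANP32B (log2 fold change 0.19, limma adjusted p 0.438). DNAJB9 (chr7:108569867-108574850), the co-chaperone ERdj4 that binds IRE1, was 7.40 and 8.12 TPM in NC, against 16.6 and 10.4 TPM in sh-ANP32B. Its log2 fold change of 0.70 was the highest of all members, but the sh-ANP32B samples differed from each other by -0.62 (2 minus 1), and the test gave SE 0.255 and a limma adjusted p of 0.167. CRELD2, a folding cofactor, was 49.8 and 40.4 TPM in NC, against 50.1 and 78.8 TPM in sh-ANP32B, so the lower knockdown value nearly met the higher NC value.

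The other HSP70 cofactors did not pass the test either. DNAJC3, an ER co-chaperone, was 41.5 and 44.2 TPM in NC, against 58.0 and 43.8 TPM in sh-ANP32B, and DNAJB11, another of that class, ranged from 32.1 to 39.3 TPM. SDF2L1, which works with DNAJB11, was 33.6 and 27.2 TPM in NC, against 16.4 and 33.1 TPM in sh-ANP32B, the widest replicate gap of any member. HYOU1, a large HSP70-like chaperone, was 99.95 and 94.6 TPM in NC, against 74.5 and 94.96 TPM in sh-ANP32B. In DNAJC3, SDF2L1 and HYOU1 alike, sh-ANP32B 2 lay within the NC range and sh-ANP32B 1 outside it.

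The ER degradation genes had the highest median of the 4 groups, 0.35, with 3 of 4 positive, where 9741 of 16817 genes tested were positive. SYVN1 (chr11:65121780-65134532), the ubiquitin ligase HRD1 at the centre of the retrotranslocation complex, was 31.5 and 32.6 TPM in NC, against 46.1 and 51.7 TPM in sh-ANP32B. Both knockdown samples lay well above both NC samples, and the log2 fold change was 0.59 (SE 0.148, limma p 0.00560, adjusted p 0.0771). SYVN1 overlaps FAU (522.2 to 700.1 TPM) on the same strand over 398 bases and MRPL49 (42.9 to 61.1 TPM) on the opposite strand over 5189 bases, so its level is uncertain.

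HERPUD1 (chr16:56932142-56944864), a membrane protein that recruits ubiquitin ligase components, was 27.0 and 29.8 TPM in NC, against 43.0 and 38.4 TPM in sh-ANP32B (log2 fold change 0.51, SE 0.155, limma p 0.0148, adjusted p 0.118), with no overlap. EDEM1, a mannosidase-like factor that marks misfolded glycoproteins, was 102.8 and 104 TPM in NC, against 125.2 and 111.5 TPM in sh-ANP32B, a smaller difference of 0.19 (limma adjusted p 0.427). SEL1L, the adaptor of SYVN1, was 31.8 TPM in both NC samples and 34.9 and 26.5 TPM in sh-ANP32B, so its groups overlapped. SYVN1 and SEL1L, partners in 1 complex, therefore differed in pattern, with log2 fold changes of 0.59 and -0.06, a difference that was not tested.

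The ATF4 arm (10 genes in the table) and the ER arm (15 chaperones and 4 degradation genes) did not separate. Their median log2 fold changes were -0.12 and -0.14, a difference of -0.02. By the mean over genes of log2(TPM + 1), sh-ANP32B minus NC was 0.025 and -0.012, so the sign for the ATF4 arm depended on the summary. The mean log2(TPM + 1) of the ER arm exceeded that of the ATF4 arm by 1.36 and 1.28 in NC and by 1.40 and 1.18 in sh-ANP32B, so the NC values lay between the knockdown values. Within the ER arm the contrast was wider. The mean of the degradation genes minus that of the chaperones was -1.76 and -1.69 in NC and -1.24 and -1.40 in sh-ANP32B. Both knockdown samples lay above both NC samples there, by 0.40 between the group means, a contrast chosen after its values were seen and described with no test. Members with the same promoter element had log2 fold changes of both signs, a spread that was not tested. Among the ERSE holders, HSP90B1, CALR, XBP1, PDIA6 and CANX were negative, from -0.41 (HSP90B1) to -0.18 (CANX). HSPA5 was at 0.02 and CRELD2 at 0.48, the latter with a limma interval from -0.08 to 1.04. The ERSE-II holders ran from -0.36 (SDF2L1, interval from -1.12 to 0.39) to 0.51 (HERPUD1). The intervals of CRELD2 and SDF2L1 include both signs, so these values cannot decide whether holders share a direction.

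**Figure D3:**
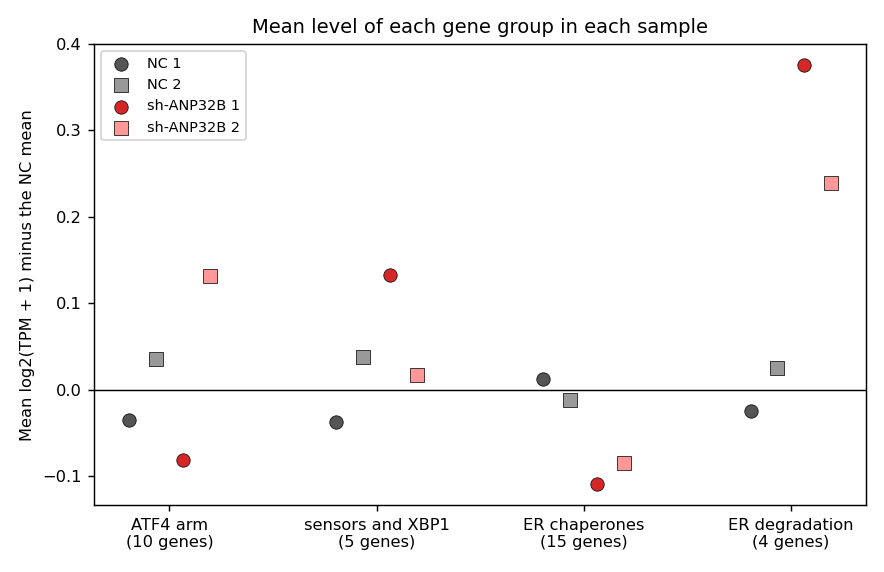
Mean log2(TPM + 1) of the genes of each group, minus the NC mean of that group, in each of the 4 samples, each sample being 1 point. Before the subtraction the degradation genes were higher in both sh-ANP32B samples (5.79 and 5.65) than in NC (5.39 and 5.44) and the chaperones lower (7.03 and 7.06 against 7.15 and 7.13), while in the ATF4 arm and the sensors the groups overlap.

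The 2 sh-ANP32B samples differed from each other by GC content, and this touches most members. All 16 members with a transcript GC content over 50% were higher in sh-ANP32B 2 than in sh-ANP32B 1, and 17 of the 18 members at or under 50% were lower. Over the 34 members, GC content and the difference sh-ANP32B 2 minus 1 had a Spearman rho of 0.88, and over 15427 genes it was 0.58, given as a description because all points share the same 2 libraries. Between the NC samples rho was -0.40 over the members. GC content and the fold change between groups had a rho of -0.16 over the members.

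**Figure D4:**
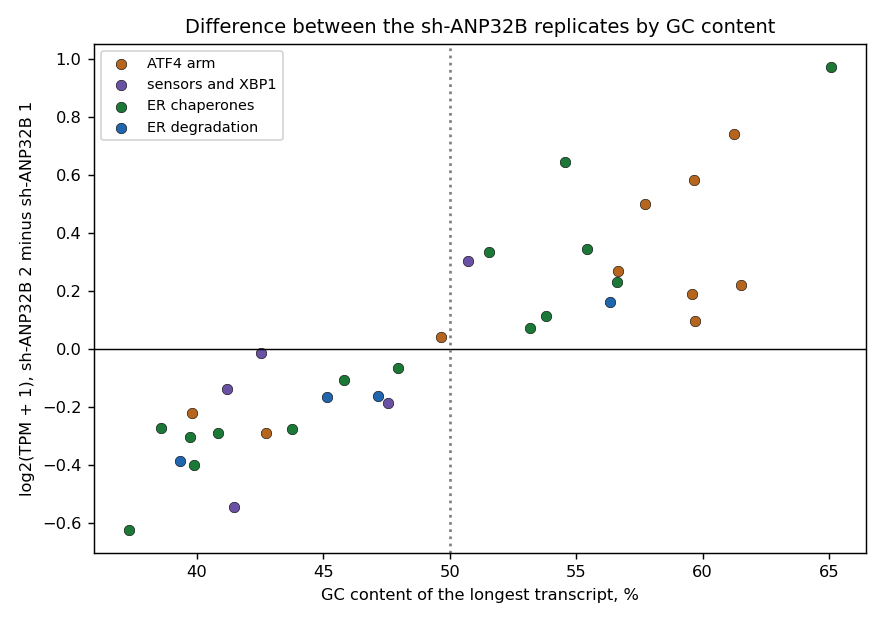
Difference between sh-ANP32B 2 and sh-ANP32B 1 in log2(TPM + 1) for each of the 34 members against the GC content in percent of its longest transcript, coloured by group, with a dotted line at 50%. Members to the right of the line all lie above 0 and all but 1 to its left lie below 0, up to 0.97 for SDF2L1 and down to -0.62 for DNAJB9.

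When log2 values were corrected for GC content in each sample, 10 members passed an adjusted p of 0.05 in limma, 29.4% against a background of 15.8% of all genes under the same correction. Higher were PPP1R15A, HERPUD1 and SYVN1, and lower were ATF4, ATF5, HSP90B1, CALR, PDIA3, PDIA4 and MANF. The calls therefore depend on this correction, while the directions of these 10 genes were the same with and without it. The corrected log2 fold change was -0.46 for ATF4 (limma adjusted p 0.0214) and -0.79 for ATF5 (limma adjusted p 0.00892).

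Counts also depended on single samples. Without sh-ANP32B 1, 15 members passed the adjusted p (24.3% of all genes), and without sh-ANP32B 2, 13 passed (20.7% of all genes). Without NC 1 or NC 2 none passed (1.93 and 1.62% of all genes). ATF4 had a log2 fold change of -0.21 without sh-ANP32B 1 (limma adjusted p 0.109) and of -0.48 without sh-ANP32B 2 (limma adjusted p 0.00626). DDIT4 had 0.87 without sh-ANP32B 1 and 0.29 without sh-ANP32B 2, and PPP1R15A had 0.91 and 0.41. DNAJB9 had 0.39 without sh-ANP32B 1 and 1.008 without sh-ANP32B 2, and HSP90B1 had -0.57 and -0.26. Each of these 5 genes kept its direction. In each of these fits 1 group holds a single sample, which is assumed to vary like the other group.

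Other genes of the pathway were taken from 6 lists chosen for their role, with earlier results of these data known. The largest, ATF4 partners and other ATF4 targets, held 40 genes, of which 35 were tested, and 23 of these had a negative and 12 a positive log2 fold change, with a median of -0.20 against 0.08 over all genes. In this list 3 genes passed the adjusted p with lower levels and 1 with a higher level, where 1.18% of all genes were lower and 2.14% higher. PSAT1, an enzyme of serine synthesis, fell from 160.3 and 161.7 TPM to 97.0 and 86.5 TPM (log2 fold change -0.81, limma adjusted p 0.0399). SLC7A5, the large neutral amino acid transporter LAT1, fell from 94.2 and 90.0 TPM to 47.3 and 54.8 TPM (log2 fold change -0.84, limma adjusted p 0.0426). KLHL24 rose from 19.4 and 21.6 TPM to 43.0 and 36.7 TPM (log2 fold change 0.93, limma adjusted p 0.0440). The third lower gene was PHGDH, the first enzyme of serine synthesis, which fell by 0.72 (limma adjusted p 0.0454) and is named after its value was seen. At an unadjusted p under 0.05 the list held 11 lower and 6 higher genes, or 48.6% of those tested against 23.8% of all genes. None of the 4 calls held in the fit without an abundance trend or without 1 NC sample.

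Of the 15 eIF2 subunits, exchange factor subunits and regulators none passed, and 11 had a negative log2 fold change (median -0.13). At an unadjusted p under 0.05 there were 3 lower and 1 higher, or 26.7%, near the 23.8% of all genes. EIF2B3, a subunit of the eIF2 exchange factor, was 34.8 and 35.8 TPM in NC, against 23.3 and 18.3 TPM in sh-ANP32B (log2 fold change -0.75, limma adjusted p 0.0703). PPP1R15B, the constitutive counterpart of PPP1R15A, was 63.5 and 69.9 TPM in NC, against 47.0 and 44.9 TPM in sh-ANP32B (log2 fold change -0.53, limma adjusted p 0.0882). The constitutive and the stress-induced phosphatase subunit thus lay on opposite sides, neither past the test.

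The higher median of the 4 listed degradation genes was less marked in the wider set. Of 27 other ER degradation genes, 19 had a positive log2 fold change, as had 9741 of 16817 genes tested. The median was 0.11, near the 0.08 of all genes. None passed the adjusted p in limma, and at an unadjusted p under 0.05 there were 5 higher and 1 lower, or 22.2%, near the 23.8% of all genes. SELENOS, a membrane selenoprotein of the retrotranslocation complex, was 14.6 and 13.5 TPM in NC, against 20.5 and 24.02 TPM in sh-ANP32B (log2 fold change 0.63, limma adjusted p 0.101), and UBE2J1, the ubiquitin-conjugating enzyme that serves SYVN1, was 33.7 and 33.2 against 50.5 and 44.5 TPM (log2 fold change 0.49, limma adjusted p 0.114).

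In the remaining 3 lists no gene passed the adjusted p in limma. The 24 translocon and signal peptidase genes had a median log2 fold change of 0.07, the 30 other folding and glycan genes of -0.03 and the 14 other stress transducers tested (of 16) of 0.05, against 0.08 over all genes. At an unadjusted p under 0.05 there were 1 gene in the first list (4.17%), 4 in the second (13.3%) and 0 in the third, against 23.8% of all genes. TXNDC12, a thioredoxin-like oxidoreductase of the ER, was 88.2 and 95.4 TPM in NC, against 69.0 and 59.7 TPM in sh-ANP32B, and QSOX1, a sulfhydryl oxidase, was 262.2 and 262.6 against 335.8 and 350.1 TPM. SEC11C, a catalytic subunit of signal peptidase, was 19.99 and 23.4 TPM in NC, against 14.6 and 14.0 TPM in sh-ANP32B, while TRAM1, a translocon-associated protein, had a log2 fold change of 0.28. CREB3L3 and RTCB, the latter the ligase that joins spliced XBP1, had the smallest p-values among the transducers, with log2 fold changes of -0.79 and -0.27. CREB3L3 was only 2.27 and 1.51 TPM in NC, against 1.06 and 0.33 TPM in sh-ANP32B. Its limma interval ran from -1.68 to 0.10.

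**Figure D5:**
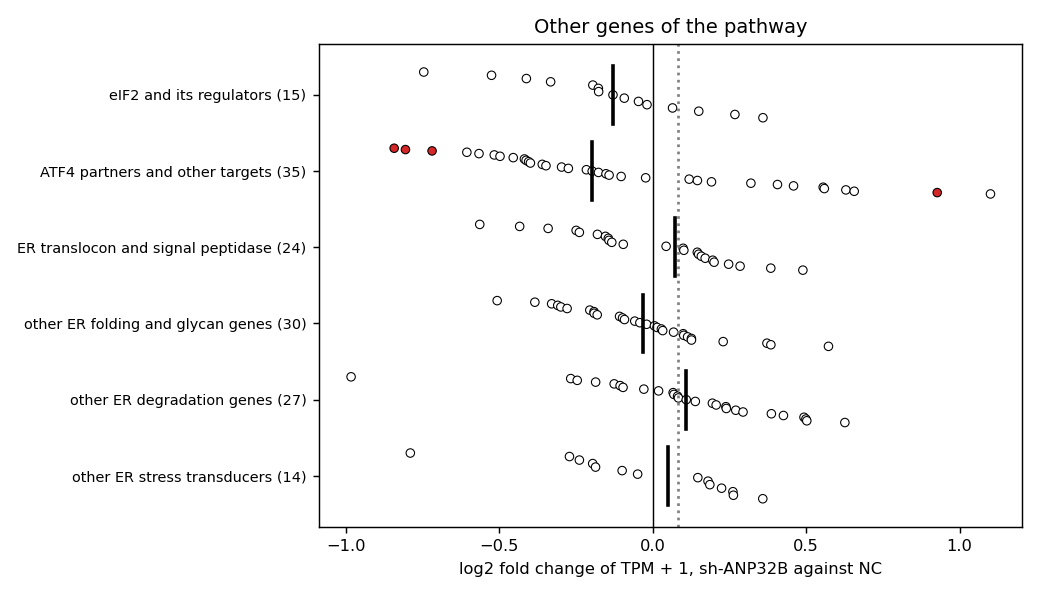
Log2 fold change, sh-ANP32B minus NC on the log2(TPM + 1) scale, of every tested gene in the 6 further pathway lists, each gene being 1 point, with a bar at the median of each list, a dotted line at the median of all genes and genes past an adjusted p of 0.05 in red. The 4 red points all lie in the list of ATF4 partners and other targets, whose median of -0.20 is the lowest of the 6.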

How the data were processed

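RNA of 4 Kasumi-1 samples (2 NC, 2 sh-ANP32B, grouped by their labels) was sequenced. The submitters' processing notes name HISAT2 2.0.5 and hg38. The deposited values were taken to be TPM from their size and column sums. The authors made them with a program and annotation not given in the sources used here. TPM keeps no depth.

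Of 18567 Ensembl IDs, 16986 were found in GENCODE v44 for symbols and GC content. Every sample column was matched by name. Genes reaching 1 TPM in 2 or more samples were tested, and log2(TPM + 1) was compared in all 4 samples by limma 3.58.1 (R 4.3.3) with an abundance trend, two-sided, with Benjamini-Hochberg adjustment over 16817 genes. Fold changes on this scale understate those of low genes. The test was tested on simulated data with errors independent between genes and the same spread in both groups. The GC-linked differences between these samples were not simulated. The study's criterion was applied to the limma p-values, while the authors used DESeq2, which needs counts. An exact permutation test of 2 against 2 samples cannot pass 0.05 and was not run. Summaries used Python 3.11.15 and pandas 2.3.3.

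The members and lists were chosen with earlier results of these data known. All 36 members and ANP32B are named. In each further list up to 2 genes with the highest and the lowest fold change past an adjusted p of 0.05 are named, or else the 2 with the smallest p. Alternatives were other scalings, filters, a pseudocount of 0.1, other variance models, a loess GC correction (15427 genes), a replicate block and leaving out each sample. A marker gene of the list is not reported here.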

Additional observations from a re-analysis of the deposited data

How the results depend on the processing

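Under 16 alternatives, 25 of the 34 members kept the sign of their log2 fold change throughout. The 7 members past the study's criterion numbered 2 to 8 when 1 sample was left out and 5 to 8 otherwise. The count past a limma adjusted p of 0.05, 0 as reported, was 1 (ATF5) under median-of-ratios scaling, upper-quartile scaling, quantile normalization, without mitochondrial transcripts and with at least 1 TPM in every sample, 10 with the GC correction, 4 with GC correction and replicate block, and 0 to 15 with 1 sample left out. In the further lists the 4 calls became 0 without the abundance trend, 28 with the GC correction, 17 with GC correction and block, and 0 to 48 with 1 sample left out. KLHL24 also missed the threshold without mitochondrial transcripts (limma adjusted p 0.0501). These counts rose in fits that called more of all genes. With the GC correction 29.4% of members passed, against 15.8% of all genes. With GC correction and block the 4 members made up 11.8%, close to the 11% of all genes. Counts in the further lists under these 2 fits are to be read beside the same shares of all genes. Whether the replicate numbers pair NC with sh-ANP32B samples is not given in the sources used here. Deviations of same-numbered samples had a Pearson r of -0.0925. That value rests on 1 difference between replicates in each group and cannot decide the pairing. With the replicate number as a block, 2 members passed (PPP1R15A, limma adjusted p 0.0398, and ATF5, 0.0430) against 8.76% of all genes, and 8 genes of the further lists. The ATF4 arm median of -0.12 was -0.23 with the GC correction, with or without the block, and -0.20 to 0.025 with 1 sample left out. The ER arm median of -0.14 was -0.24 under median-of-ratios scaling, -0.21 under upper-quartile scaling, -0.20 under quantile normalization, -0.19 without mitochondrial transcripts, -0.18 with the GC correction, with or without the block, and -0.14 to -0.0091 with 1 sample left out. The difference of the arms, -0.02, ran from -0.17 (without NC 2) to 0.19 (without sh-ANP32B 2). ANP32B kept -3.04 without the abundance trend (limma adjusted p 0.0929) and ran from -3.20 to -2.88 with 1 sample left out. HSPA5, at 0.02, was -0.074 under median-of-ratios scaling, -0.043 under upper-quartile scaling, -0.00080 under quantile normalization, -0.030 without mitochondrial transcripts and -0.0028 with the GC correction, with or without the block, and EIF2AK3 was -0.0054 under quantile normalization. With 1 sample left out the sign turned in TRIB3 (-0.21 to 0.012), CHAC1 (-0.51 to 0.23), XBP1 (-0.53 to 0.011), ATF6 (-0.013 to 0.25), EIF2AK4 (-0.18 to 0.011), HSPA5 (-0.12 to 0.16), SDF2L1 (-0.85 to 0.12) and SEL1L (-0.25 to 0.13). The cause was not tested in any of these.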
